A study of Mus musculus with 60 samples.

Results

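The genes described here encode the nuclear part of the mitochondrial respiratory chain and the ATP synthase. They were taken by symbol: the complex I subunits and assembly factors (symbols starting with Nduf), complex II (Sdha to Sdhd), complex III (Uqcr), complex IV (Cox4 to Cox8) and the ATP synthase or complex V (Atp5), with Cox8b and Cox7a1 left out. The rule matched 92 of the 24982 genes in each of 2 expression tables. A gene was kept where it reached 1 FPKM (fragments per transcript length and sequencing depth) in at least 3 libraries of a table. That kept 89 members for the Tet1-KO and WT libraries and 88 for the 23-CATA, 23-Tet1 and 23-NC libraries. The members left out were Cox7b2, Cox8c and Ndufa4l2 in the Tet1-KO and WT table, and Cox4i2, Cox6b2, Cox7b2 and Cox8c in the other. At the edge of the filter, Cox6b2 was kept in the Tet1-KO and WT table with 4 libraries at 1 FPKM or more and a highest value of 1.70 FPKM, while Cox7b2 was left out with 1 such library and a highest value of 1.40 FPKM.

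The 60 libraries, in 20 groups of 3, hold polyadenylated RNA from C3H10T1/2, a mesenchymal line of mouse that turns into fat cells under a hormone cocktail. Cells were taken at days 0, 2, 4 and 6 of a differentiation that began, for all populations alike, with 48 h in 10% FBS plus 1 nM T3, 1 µM rosiglitazone, 10 µg/ml insulin, 0.5 mM IBMX and 1 µM dexamethasone and went on in insulin alone at 5 µg/ml. The populations were Tet1-KO, labelled as a knockout of Tet1, which encodes a dioxygenase that oxidizes methylated cytosine in DNA, and its WT; and 23-CATA, 23-Tet1 and 23-NC, names that the labels do not explain. Neither the clones, nor whether 3 libraries of a group came from separate cultures, are stated in the labels, so p-values measure the spread between these libraries, which may be technical. For 11 of the 23-Tet1 libraries the genotype tag differs from the title, and the title was followed.

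Complex I takes electrons from NADH and complex II takes them from succinate. Complex III passes them through cytochrome c to complex IV, which reduces oxygen, and the proton gradient that complexes I, III and IV build drives the ATP synthase. A white fat cell makes many mitochondria as it forms, and a brown fat cell makes more. All subunits of complex II are encoded in the nucleus, whereas the other complexes also hold subunits encoded in mitochondrial DNA, which are not analysed here.

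Tet1 itself was listed at 0.26, 0.24 and 0.25 FPKM in Tet1-KO cells at day 0, against 0.88, 1.12 and 1.03 FPKM in WT cells, and at 0.11 FPKM or less in both at later days. It lay between 4.04 and 21.56 FPKM in the 23-CATA and 23-Tet1 libraries and at 0.12 FPKM or less in 23-NC. The libraries held 11.7 to 18.7 M fragments by the spacing of their lowest values and an assumed fragment length of 200 bases, with 1 exception. In Tet1-KO day 6 replicate 2 that spacing was unclear. This library listed 11805 genes above 0, correlated with the other 2 libraries of its group at 0.944 and 0.919 on the log2 scale where other replicate pairs reached at least 0.97, and gave Atp5e, the epsilon subunit of the ATP synthase, at 18907 FPKM. The tests of the members and of the lists beside them at day 6 are therefore given with and without it, while averaged levels, marker sums, correlations over group means and the figures include it. The FPKM values summed to between 612993 and 1060628 per library in the Tet1-KO and WT table and to between 503085 and 733105 in the other. The 2 tables were therefore fitted separately, and no test was made between them.

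Promoter sequence was looked at first, since many respiratory genes are known targets of the transcription factor NRF1. For 74 of the 92 members the RefSeq promoter table (GRCm38.p6, 250 bases before to 50 bases after the start) held a sequence. The palindromic NRF1 motif, searched on both strands, stood in 19 of these 74 promoters (25.7%), against 5.19% of 27025 genes and 7.17% of 17491 coding genes in the same table. The YY1 letters AAGATGGC, searched like the others on both strands, stood in 11 members (14.9%), 3.19% of all genes and 3.57% of the coding genes. The ERR letters TCAAGGTCA stood in only 2 members (2.70%), 0.466% of all genes and 0.377% of the coding genes. The GC-box letters GGGCGG stood in 47.3% of the members and 38.2% of all genes, but in 49.2% of the coding genes. The other letters searched were CCGGAAGT for the ETS family and TGACGTCA for CREB. Those for ETS stood in 5 members (6.76%), 4.31% of all genes and 5.69% of the coding genes. Those for CREB stood in 4 members (5.41%), 2.03% of all genes and 2.54% of the coding genes. These shares describe letters, not binding. The stretches below are shown because they carry the NRF1 motif, in capitals, in members of complexes I, II, IV and V. They include Atp5g2, which did not pass the test in differentiating WT cells on any day, beside 5 members that rose there by day 4. Each is written 5′ to 3′ on the strand of its gene and ends before a RefSeq start site, and capitals mark a match on either strand. That start can differ from the 5′ end of the gene in GENCODE, the source of the gene coordinates given here. The Atp5g2 stretch lies inside the GENCODE gene (chr15:102662864-102672352), and the Atp5k stretch runs across the GENCODE 5′ end at position 108434448. Sdhd anchors complex II in the membrane (chr9:50603894-50603953, minus strand). Atp5k encodes subunit e of the ATP synthase (chr5:108434415-108434474, minus strand), and Ndufs5 a small accessory subunit of complex I (chr4:123718250-123718309, minus strand). Ndufaf4 is a complex I assembly factor (chr4:24897945-24898004, plus strand). Cox6a1 encodes the widely expressed form of complex IV subunit 6A (chr5:115349041-115349145, minus strand), and Atp5g2 encodes subunit c of the ATP synthase (chr15:102671055-102671114, minus strand).
Sdhd: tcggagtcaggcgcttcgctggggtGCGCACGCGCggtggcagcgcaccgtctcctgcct
Atp5k: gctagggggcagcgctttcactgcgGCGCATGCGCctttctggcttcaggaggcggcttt
Ndufs5: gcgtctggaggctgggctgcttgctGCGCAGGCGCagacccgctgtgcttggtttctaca
Ndufaf4: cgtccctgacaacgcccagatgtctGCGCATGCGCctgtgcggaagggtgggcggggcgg
Cox6a1: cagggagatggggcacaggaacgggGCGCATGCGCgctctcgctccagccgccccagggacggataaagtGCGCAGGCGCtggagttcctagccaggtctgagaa
Atp5g2: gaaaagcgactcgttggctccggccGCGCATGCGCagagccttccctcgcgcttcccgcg

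The members together made up a share of each library's summed FPKM that climbed during differentiation. In Tet1-KO cells the share was 4.19 ± 0.437% (day 0), 5.36 ± 1.12% (day 2), 9.20 ± 2.37% (day 4) and 8.002 ± 1.61% (day 6), and in WT cells it was 3.24 ± 0.146%, 8.51 ± 0.425%, 11.04 ± 0.388% and 8.43 ± 0.573% on the same days (SD, n = 3 each). At day 2 the 3 Tet1-KO libraries, at 4.41, 6.60 and 5.08%, all lay below the WT libraries, at 8.45, 8.97 and 8.12%. At day 0 the order was the other way, with 4.40, 4.48 and 3.69% in Tet1-KO cells against 3.404, 3.14 and 3.16% in WT cells, and at days 4 and 6 the groups overlapped through Tet1-KO replicate 2 of each day. At day 4 the Tet1-KO libraries had 8.62, 11.8 and 7.18%, against 11.2, 11.3 and 10.6% in WT cells. At day 6 they had 7.46, 9.81 and 6.73%, against 7.87, 9.02 and 8.41% in WT cells, so that the 2 Tet1-KO libraries other than replicate 2 lay below every WT library on both days. In the other table the day 4 shares were 8.09 ± 0.380% in 23-CATA, 4.24 ± 0.110% in 23-Tet1 and 4.25 ± 0.408% in 23-NC cells. By complex, the WT means at day 4 and day 0 were 2.87 and 0.919% for complex I subunits, 0.174 and 0.0704% for complex II, 1.39 and 0.302% for complex III, 3.33 and 0.803% for complex IV and 3.24 and 1.11% for the ATP synthase. FPKM is relative to the other RNA of a library, and in bulk samples fewer cells of a type and less RNA per cell cannot be told apart.

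**Figure D1:**
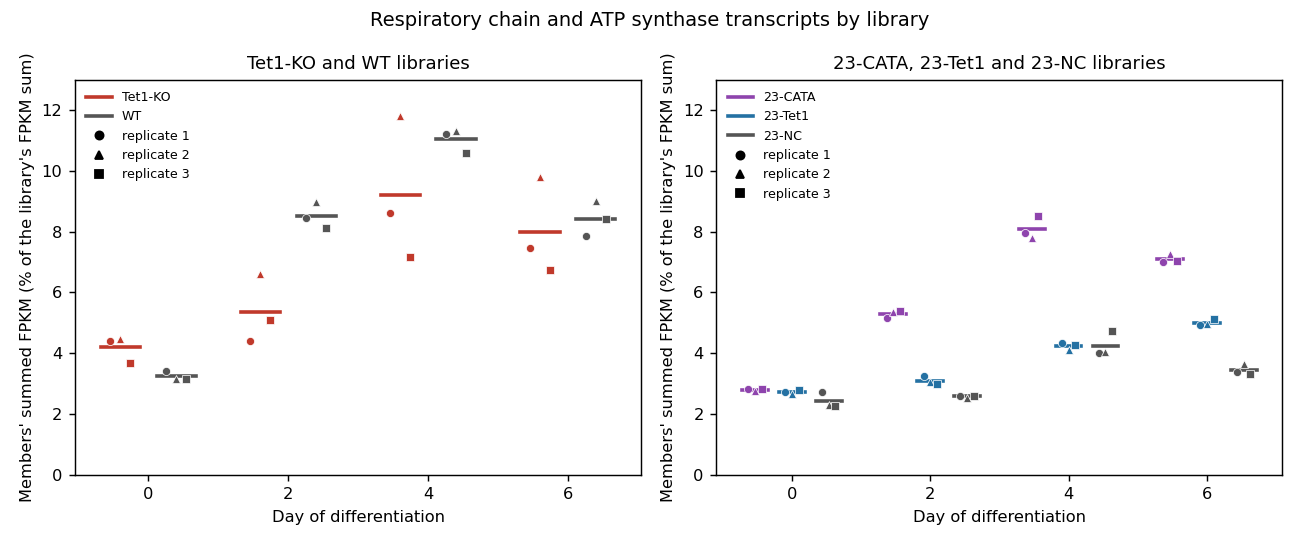
Summed FPKM of the members in percent of each library's FPKM sum (y axis) by day (x axis), for Tet1-KO and WT libraries (left) and for 23-CATA, 23-Tet1 and 23-NC libraries (right); points are libraries and bars are means of 3. WT reached 11.04% at day 4, and 23-CATA reached 8.09% where 23-Tet1 and 23-NC stayed at 4.24% and 4.25%.

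Levels within a complex spanned a wide range on the FPKM scale, which is per transcript length. Averaged over the Tet1-KO and WT libraries, Ndufa4 was the highest of the genes named as complex I at 1479 FPKM, Ndufaf8 the highest assembly factor at 144 FPKM, Sdhc the highest of complex II at 257 FPKM, Uqcr11 of complex III at 2420 FPKM, Cox4i1 of complex IV at 3377 FPKM and Atp5e of the ATP synthase at 2633 FPKM. Lowest were Ndufa4l2 at 0.245, Ndufaf5 at 6.97, Sdha at 145, Uqcrc2 at 147 and Atp5s at 12.1 FPKM, with Cox8c listed at 0. Protein studies place Ndufa4 in complex IV rather than complex I. Its symbol decides its group here. In the 23-CATA, 23-Tet1 and 23-NC libraries the highest were Ndufa4 (754 FPKM), Ndufaf8 (59.6), Sdhd (162), Uqcr10 (615), Cox8a (1569) and Atp5b (1194), and the lowest Ndufa4l2 (7.01), Ndufaf5 (4.91), Sdhb (104), Uqcrq (120), Atp5s (8.86) and Cox8c (listed at 0). The Atp5g1, Atp5g2 and Atp5g3 genes encode the same mature protein, and reads they share with each other or with copies such as Ndufab1-ps and Ndufb4c could be split by the authors' counting, so their single values are uncertain.

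In differentiating WT cells nearly the whole chain rose, and no member fell. Of 89 members, 79 were higher at day 2 than at day 0, 82 at day 4 and 79 at day 6, tested with limma across all genes at an adjusted p under 0.05. Among all 11911 genes tested, 62.1, 67.3 and 56.6% passed in either direction on these days, with 18.9, 18.1 and 19.2% higher and 43.2, 49.2 and 37.4% lower. The median member changed by 2.19, 2.50 and 1.80 on the log2 scale, a fold of 4.56, 5.67 and 3.48. All log2 changes are given relative to the median gene tested, which itself moved by −0.39, −0.52 and −0.29. The p-values belong to the changes before that shift. Under quantile normalization the medians were 1.35, 1.74 and 1.37. The 72 cytosolic ribosomal protein genes had medians of 1.42, 0.45 and 0.10 on these days, with 58, 3 and 1 higher and 0, 3 and 5 lower. All genes tested with transcripts under 1000 bases had medians of 0.45, 0.39 and 0.25. Members under and over 1000 bases had medians of 2.33 and 2.02 at day 2. The part of transcript length in the members' rise was not tested. By complex, the median at day 4 was 3.31 for complex III, where 8 of 8 members rose, 2.90 for complex IV (12 of 14), 2.53 for complex I subunits (36 of 38), 2.42 for the ATP synthase (16 of 17), 2.196 for complex II (4 of 4) and 1.33 for the complex I assembly factors (6 of 8). The assembly factors had the smallest median of the 6 classes on each of the 3 days. At day 4, all 18 of the redox and catalytic subunits of complexes I, II, III and V named for this purpose were higher, with a median of 2.59. That label is loose, since the list also holds the structural subunits Uqcrc1, Uqcrc2, Atp5c1 and Atp5o.

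Uqcrq, a small subunit of complex III (chr11:53427922-53430831, minus strand), changed most at day 4. Its levels in WT cells were 64.6, 54.6 and 55.9 FPKM at day 0, 534.0, 537 and 444 FPKM at day 2, 772, 743 and 636 FPKM at day 4 and 369, 569.7 and 444 FPKM at day 6. No library of a later day overlapped day 0, and the day 4 change was 4.11 ± 0.25 (SE, limma adjusted p = 7.59e-10). Ndufv1 encodes the subunit of complex I that binds FMN and NADH (chr19:4007384-4012806, minus strand). It was listed at 661, 629.6 and 554 FPKM in WT cells at day 4, against 71.6, 66.9 and 65.1 FPKM at day 0, a change of 3.67 ± 0.28 (limma adjusted p = 1.51e-08). Uqcrfs1, the Rieske iron-sulfur protein of complex III, changed by 3.73 ± 0.36 (limma adjusted p = 3.33e-07). Atp5g1, one of the subunit c genes, peaked earlier, with 241, 208 and 216 FPKM at day 0, 1951.9, 1866 and 1753 FPKM at day 2 and 1166, 1033 and 1028 FPKM at day 4. Sdha, the flavoprotein of complex II (chr13:74322254-74350280, minus strand), rose later. It had 98.1, 96.3 and 88.6 FPKM at day 0, 99.3, 118 and 112 FPKM at day 2 and 245, 251 and 255 FPKM at day 4, and its change of 0.61 at day 2 did not pass the test.

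The WT members that did not pass at day 4 were Atp5g2, Cox4i2, Cox6b2, Ndufaf2, Ndufaf3, Ndufb4 and Ndufb4c. Atp5g2 (chr15:102662864-102672352, minus strand) was already high before induction, with 827, 809 and 766 FPKM at day 4 and 571, 538 and 549 FPKM at day 0. Its day 4 change of 1.05 missed the threshold although the libraries did not overlap. Cox4i2, the lung and hypoxia form of complex IV subunit 4, stayed at 1.43 FPKM or less in every WT library. Cox6a2 (chr7:128205435-128206387, minus strand), the heart and muscle form of subunit 6A, came last. It had 0.17, 0.19 and 0.29 FPKM at day 0, 0.59, 0.50 and 0.29 FPKM at day 2, 7.33, 6.43 and 4.94 FPKM at day 4 and 11.8, 18.2 and 16.0 FPKM at day 6, and its day 6 change of 4.02 ± 0.54 (limma adjusted p = 1.15e-05) was the largest of any member on that day. Striated muscle markers summed to 1.88 to 2.58 FPKM in WT cells at day 6, with Myod1, Myog, Actn2, Ckm and Myh1 listed at 0. The 8 brown or thermogenic adipocyte markers summed to 306.11 to 672.17 FPKM there, with Ucp1, Dio2 and Zic1 listed at 0. Among those 8 are Cox7a1 and Cox8b, the chain genes left out of the members. The 10 adipocyte markers summed to 91394 to 110914 FPKM at day 4 and to 102.66 to 246.59 FPKM at day 0 in WT cells. Their part in the members' course was not tested.

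Most lists of genes that work beside the chain moved with it, whereas the regulators of mitochondrial biogenesis were split. At WT day 4, 17 of 18 citrate cycle genes were higher, with a median of 2.96, as were 13 of 17 genes of mitochondrial import and the outer membrane (2.13), 28 of 38 assembly factors under other symbols and 6 of 7 electron carriers and other chain genes. Cycs, which encodes cytochrome c, had 792, 749 and 693 FPKM at day 4 against 30.0, 28.8 and 27.1 FPKM at day 0. The rise was not limited to mitochondrial lists. Among 19 glycolysis and hypoxia response genes, 10 were higher and 1 lower at day 4 (median 1.80). At day 2 these counts were 6 and 4 (1.06), and at day 6 they were 16 and 0 (2.12). Of 15 regulators of mitochondrial biogenesis, 4 were higher and 6 lower at day 4, with a median of −0.02. Among these regulators Esrra, a nuclear receptor that drives respiratory genes, had 80.1, 94.7 and 96.3 FPKM at day 4 against 20.8, 18.2 and 21.3 FPKM at day 0. The libraries of Nrf1 lay the other way, at 4.85, 5.09 and 5.91 FPKM at day 4 and 10.6, 10.6 and 10.96 FPKM at day 0.

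**Figure D2:**
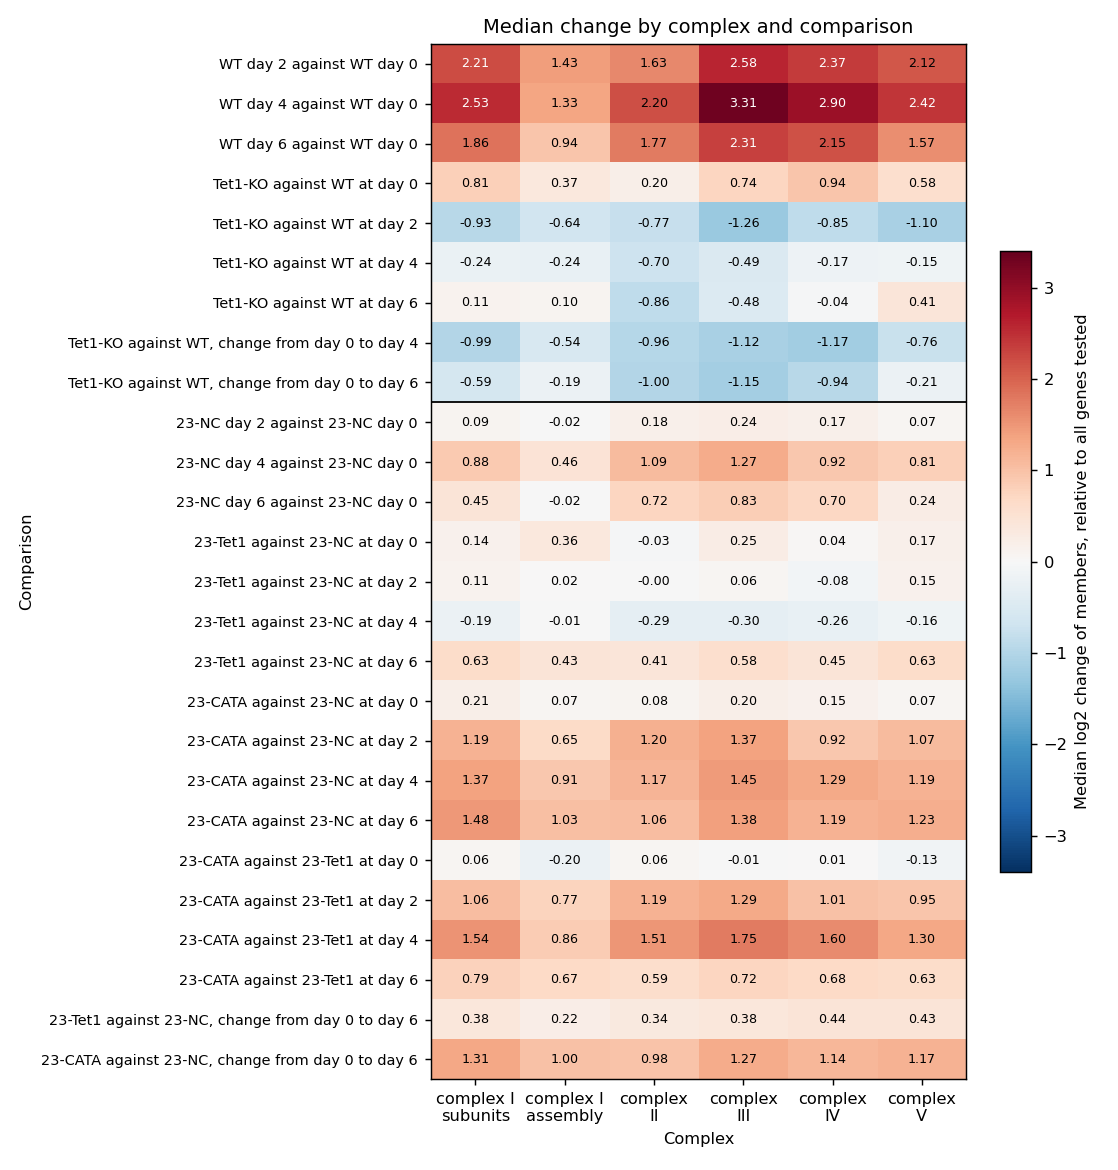
Median log2 change of the members, relative to the median gene tested (colour and number), for each class of members (columns) in each comparison (rows); the black line parts the 2 tables. Complex III had the largest WT median on each day (3.31 at day 4), Tet1-KO cells were below WT in every class at day 2, and 23-CATA cells were above 23-NC in every class at days 2 to 6.

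Before induction, Tet1-KO cells had more of a subset of the chain than WT cells. At day 0, 30 of 89 members were higher in Tet1-KO cells and none was lower, where 16.8% of all genes passed in either direction and 5.83% passed as higher. The median member differed by 0.70, a fold of 1.63. The 30 comprised 18 of 38 complex I subunits, 6 of 14 complex IV members, 3 of 8 complex III members and 3 of 17 ATP synthase members, with none of complex II and none of the assembly factors. Of the 18 redox and catalytic subunits only Ndufs3 and Ndufs7, both of the iron-sulfur part of complex I, passed. The rest of the 30 were mostly small accessory subunits. Ndufb11, an accessory subunit in the membrane arm of complex I (chrX:20615326-20617619, minus strand), had 291, 342 and 208 FPKM in Tet1-KO cells and 131, 109 and 113 FPKM in WT cells. Its difference was 1.31 ± 0.19 (limma adjusted p = 0.000224), and the groups did not overlap. Cox4i1, the main form of complex IV subunit 4, had 1565, 1847 and 1152 FPKM in Tet1-KO cells and 913, 757 and 719.99 FPKM in WT cells (1.00 ± 0.23, limma adjusted p = 0.0100). Ndufa1 (1.24 ± 0.26), Ndufb7 (1.21 ± 0.38, limma adjusted p = 0.0491) and Cox7a2l (0.97 ± 0.21), which joins complexes III and IV into supercomplexes, were higher too. Without Tet1-KO day 6 replicate 2, which enters through the shared spread, 52 members were higher and 33.2% of all genes passed. The count of 30 fell to 10 without Tet1-KO day 0 replicate 1, 6 without Tet1-KO day 0 replicate 2, 9 without WT day 0 replicate 2 and 11 without WT day 0 replicate 3. Under quantile normalization 14 were higher and 1 was lower.

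Several marker lists differed between the groups at day 0 as well. Smooth muscle and myofibroblast markers summed to 1484.57 to 1655.23 FPKM in Tet1-KO cells and 563.81 to 586.79 FPKM in WT cells, and mesenchymal progenitor markers to 919 to 1069.9 and 617.18 to 648.22 FPKM. Macrophage markers summed to 35.95 to 45.66 FPKM in Tet1-KO cells and 4.38 to 5.14 FPKM in WT cells, and adipocyte markers to 281.58 to 467.79 and 102.66 to 246.59 FPKM. Chondrocyte and tendon markers lay the other way, at 159.65 to 209.24 FPKM in Tet1-KO cells and 294.05 to 329.03 FPKM in WT cells. None of these 5 lists overlapped between the groups, and their part in the members' difference was not tested.

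Transcript length moved with that day 0 difference. Lengths were taken as the median over a gene's annotated coding transcripts. Partial transcripts were included, so a length can depart from that of the main mRNA and a gene can fall in the wrong class. Ndufs1, for example, was given 651 bases and Atp5g1 2675.5 bases. On that measure the members' median was 683 bases, against 2054 bases for all genes tested. The 65 members under 1000 bases had a median difference of 0.82 between Tet1-KO and WT cells, with 26 higher, and the 24 longer members one of 0.37, with 4 higher. All genes tested under 1000 bases had a median of 0.29. The 72 cytosolic ribosomal protein genes, which are also short, had a median of 0.74, with 20 higher, and took 19.8 to 24.9% of the FPKM in Tet1-KO cells at day 0 against 16.9 to 18.5% in WT cells. The part of length in the members' difference was not tested.

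**Figure D3:**
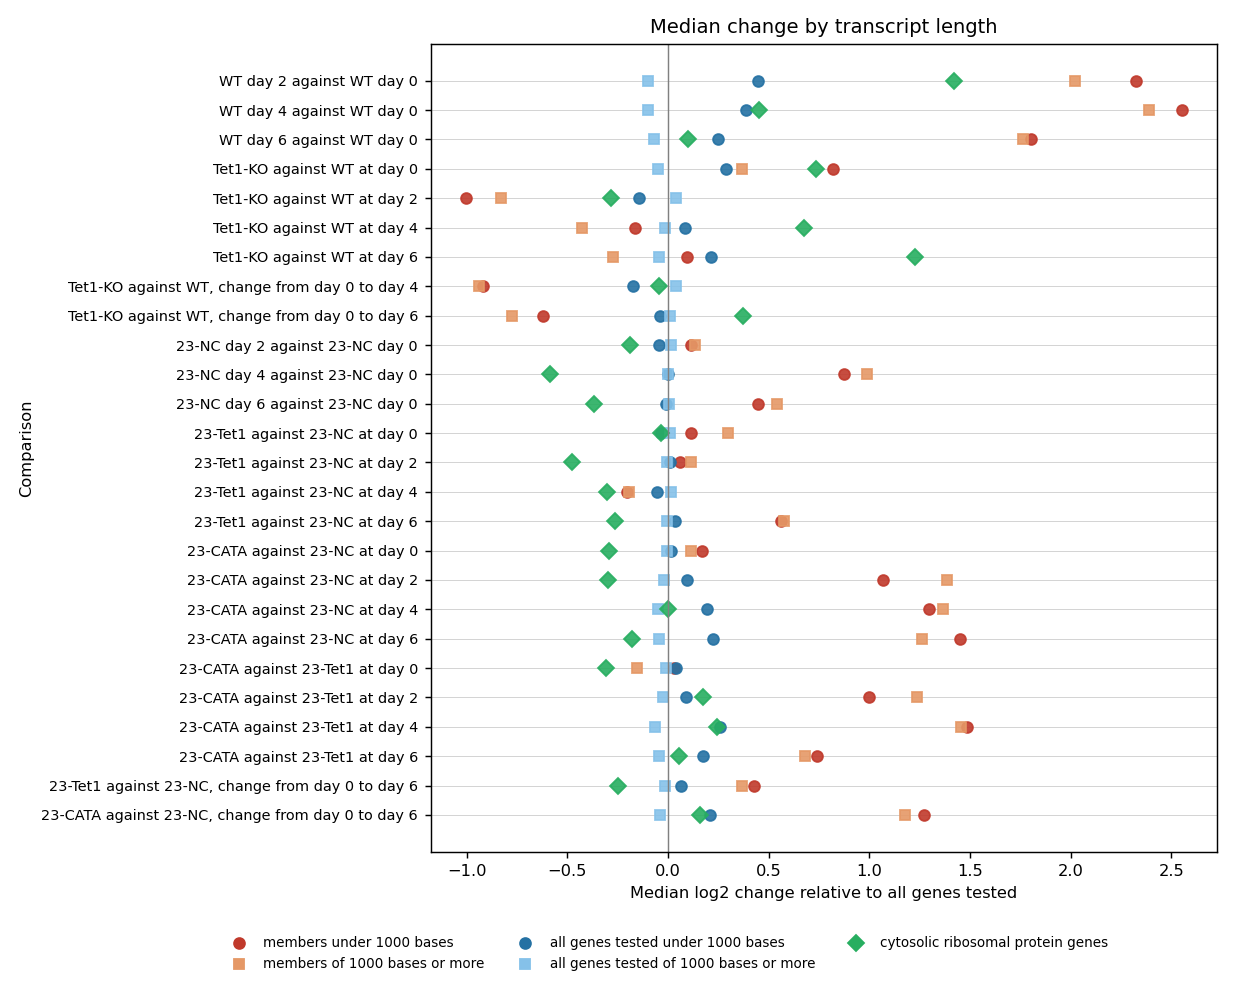
Median log2 change relative to all genes tested (x axis) in each comparison (rows), for members under and over 1000 bases, for all genes tested under and over 1000 bases, and for cytosolic ribosomal protein genes. At day 0 the short members and the ribosomal protein genes were close together (0.82 and 0.74, Tet1-KO against WT), whereas at day 2 members of both length classes were lower (−1.001 and −0.83) and the ribosomal protein genes stood at −0.28.

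At day 2, when the chain had risen in WT cells, it was lower in Tet1-KO cells. Of 89 members 41 were lower and none was higher, where 22.9% of all genes passed and 6.76% passed as lower. The median member differed by −0.92, a fold of 0.529. Lower members came from every class: 22 of 38 complex I subunits, 7 of 17 ATP synthase members, 5 of 8 of complex III, 5 of 14 of complex IV, and 1 each of complex II and the assembly factors (Sdhd and Ndufaf3). Among the 18 redox and catalytic subunits 10 were lower. Short and long members shared the direction, with medians of −1.001 and −0.83, and all genes tested under 1000 bases had a median of −0.14. Ndufab1, the acyl carrier protein of complex I (chr7:122085403-122101886, minus strand), had 219, 444 and 279 FPKM in Tet1-KO cells and 876, 918 and 838 FPKM in WT cells. Its difference was −1.71 ± 0.25 (limma adjusted p = 0.000498), and no library of the groups overlapped. Ndufv1 had 119, 233 and 150.1 FPKM in Tet1-KO cells and 359, 389 and 343 FPKM in WT cells (−1.34 ± 0.28, limma adjusted p = 0.0062). In both genes Tet1-KO replicate 2 lay nearest to WT. Atp5g1 had 510.4, 1234 and 607 FPKM in Tet1-KO cells and 1951.9, 1866 and 1753 FPKM in WT cells (−1.52 ± 0.29, limma adjusted p = 0.00324). Uqcr10, a small complex III subunit, had 625, 1271 and 816 FPKM in Tet1-KO cells and 2259.99, 2250.01 and 1976 FPKM in WT cells (−1.48 ± 0.45, limma adjusted p = 0.0388).

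The other mitochondrial genes followed at day 2. Of 18 citrate cycle genes 7 were lower in Tet1-KO cells and none higher (median −0.92), as were 10 of 38 assembly factors under other symbols, 4 of 17 import and outer membrane genes and 3 of 7 electron carriers. None of 19 glycolysis and hypoxia response genes passed with limma. Markers of cell state moved with this difference. The adipocyte markers summed to 8444.9, 49189.4 and 10747.5 FPKM in Tet1-KO cells at day 2 and to between 51370.8 and 67087.9 FPKM in WT cells, so that Tet1-KO replicate 2 was highest in its group for these markers and for the chain alike. Smooth muscle and myofibroblast markers summed to 123.83 to 433.24 FPKM in Tet1-KO and 5.91 to 11.66 FPKM in WT cells, and mesenchymal progenitor markers to 169.07 to 744.01 and 63.56 to 89.14 FPKM. Their part in the chain's difference was not tested. The count of 41 lower members was 9 without Tet1-KO day 2 replicate 1, 21 without replicate 3, 20 without WT day 2 replicate 1, 20 without replicate 2 and 27 without replicate 3. Without Tet1-KO day 6 replicate 2 it was 70, with 40.7% of all genes passing.

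By day 4 few members passed the test. Ndufs1, Ndufab1, Sdha and Atp5a1 were lower in Tet1-KO cells and none was higher, so that 4 of 89 members passed where 16.0% of all genes did, 9.79% as higher and 6.22% as lower. The members' share was thus below the background. The median member differed by −0.24. Among the 18 redox and catalytic subunits 3 were lower and none higher, with a median of −0.70 and a range from −1.16 to −0.23. In simulated data 54 of 100 changes of log2 size 1 were recovered. Those data held far fewer changed genes than this comparison and gave each gene the same spread in all groups. That share therefore does not say how many differences of that size were missed here. Ndufs1, the largest iron-sulfur subunit of complex I, had 50.3, 134 and 52.9 FPKM in Tet1-KO cells and 149, 146 and 154 FPKM in WT cells (−1.16 ± 0.28, limma adjusted p = 0.0133). Sdha had 103, 264 and 98.1 FPKM in Tet1-KO cells against 245, 251 and 255 FPKM in WT cells (−0.94 ± 0.27, limma adjusted p = 0.0389). In Sdha, Tet1-KO replicate 2 exceeded all WT libraries while the other 2 Tet1-KO libraries lay below them. Atp5a1, the alpha subunit of the ATP synthase, differed by −0.84 ± 0.24 (limma adjusted p = 0.0364) and Ndufab1 by −1.0005 ± 0.25 (limma adjusted p = 0.0174). The count of 4 was 15 without Tet1-KO day 4 replicate 2, 0 without replicate 1 or replicate 3, 1 without WT day 4 replicate 1 or replicate 2, 2 without WT day 4 replicate 3 and 13 without Tet1-KO day 6 replicate 2. Adipocyte markers summed to 40914.5, 87296.4 and 23562.7 FPKM in the 3 Tet1-KO libraries, again with replicate 2 the highest, and to 91394 to 110914 FPKM in WT cells. Smooth muscle and myofibroblast markers summed to 57.27 to 593.46 FPKM in Tet1-KO cells and 5.93 to 9.91 FPKM in WT cells, and mesenchymal progenitor markers to 92.99 to 887.67 and 46.76 to 57.76 FPKM. The part of these markers was not tested. Among the lists beside the chain, 4 of 18 citrate cycle genes were lower (median −0.82) and 4 of 19 glycolysis and hypoxia response genes (median −1.09), with none higher in either. Of 38 assembly factors under other symbols 6 were lower and 1 higher, of 17 import and outer membrane genes 2 were lower, of 15 regulators 2 were lower, and of 7 electron carriers 1 was higher. Of all genes tested 16.0% passed in either direction, but only 6.22% as lower. Without Tet1-KO day 6 replicate 2, 10 of 18 citrate cycle genes were lower and none higher. Of 19 glycolysis and hypoxia response genes 12 were then lower and 1 higher, where 12.3% of all genes passed as lower.

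**Figure D4:**
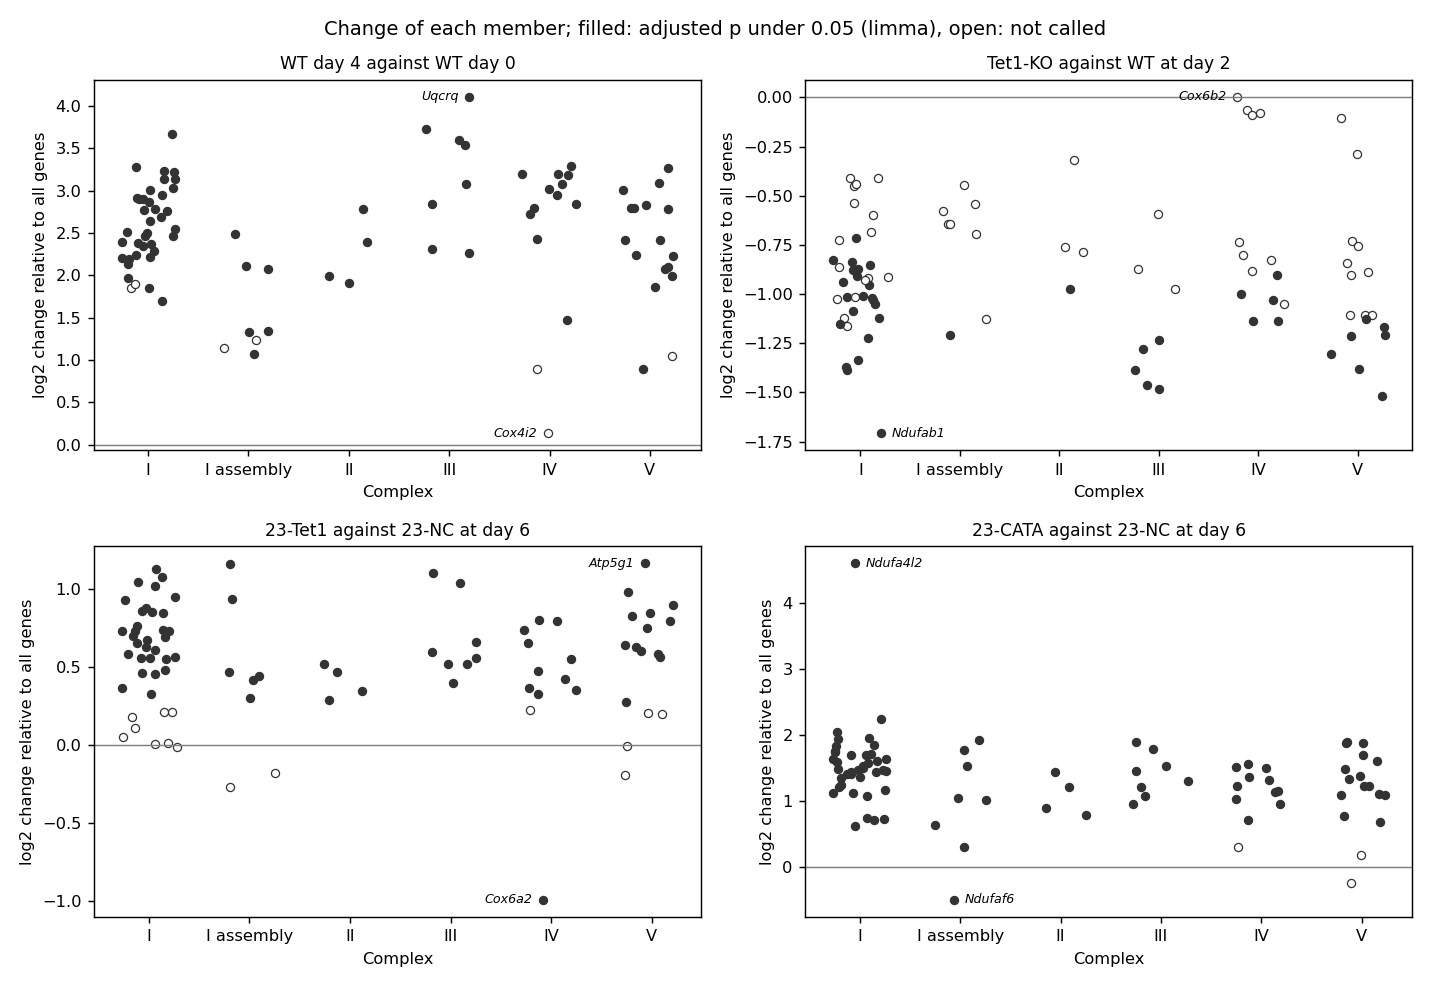
Log2 change of each member relative to all genes tested (y axis) by class (x axis) in 4 comparisons; filled points passed the test and open points did not. Uqcrq led the WT rise (4.11), Ndufab1 was lowest in Tet1-KO cells at day 2 (−1.71), and Ndufa4l2 stood apart in 23-CATA cells at day 6 (4.61).

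At day 6, 20 of 89 members were higher in Tet1-KO than in WT cells and 21 lower, where 45.4% of all genes passed, 15.7% as higher and 29.7% as lower. The count of 41 was near that background, so the count shows nothing particular to the chain. The median member differed by 0.06. The sign of that median depended on the scaling: it was −0.34 under quantile normalization, with 12 higher and 35 lower, and −0.03 without Tet1-KO day 6 replicate 2, with 15 higher and 13 lower where 43.6% of all genes passed. Of the 18 redox and catalytic subunits 11 were lower and none higher. Of those 11, 7 passed without Tet1-KO day 6 replicate 2, and Atp5c1, Sdhd, Uqcrc1 and Uqcrfs1 did not. The 20 higher members had a median transcript of 624 bases and 17 of them were under 1000 bases, and the 21 lower members had a median of 982.5 bases. Without Tet1-KO day 6 replicate 2 the medians were 623 bases for the 15 higher members, 12 of them under 1000 bases, and 982.5 bases for the 13 lower. Ribosomal protein genes had a median of 1.23 at day 6, with 45 of 72 higher, and took 22.1, 28.5 and 24.6% of the FPKM in the 3 Tet1-KO libraries against 11.4 to 13.3% in WT cells. Without replicate 2, the library at 28.5%, their median was 1.15 and 65 were higher. The part of length in the members' difference was not tested.

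Among the lower members, Cox8a, the common form of complex IV subunit 8 (chr19:7215153-7217616, minus strand), had 2188, 140.5 and 1975 FPKM in Tet1-KO cells at day 6 and 3440, 4191 and 3606 FPKM in WT cells. Its difference was −1.94 ± 0.61 (limma adjusted p = 0.00866), and −0.84 without Tet1-KO replicate 2, which is the library at 140.5 FPKM. Cox6a2 had 4.65, 0.00 and 6.47 FPKM in Tet1-KO cells and 11.8, 18.2 and 16.0 FPKM in WT cells (−2.02 ± 0.54, limma adjusted p = 0.00308, and −1.31 without that library). Sdha differed by −1.19, and by −1.37 without it, and Uqcrc2, a core protein of complex III, by −1.75 and −1.12. Among the higher members, Ndufb7, an accessory subunit of complex I, had 1319, 5159 and 1309 FPKM in Tet1-KO cells and 516, 619 and 516 FPKM in WT cells (2.11 ± 0.38, limma adjusted p = 0.000601, and 1.26 without replicate 2). Atp5e had 3238, 18907 and 2778 FPKM in Tet1-KO cells and 1278, 1931 and 1478 FPKM in WT cells (2.04 ± 0.47, limma adjusted p = 0.00421, and 0.97 without replicate 2). Ndufa5 differed by 1.83 with replicate 2 and 0.73 without it, and Ndufb4c by −1.82 and −0.77. All 6 of the genes with the largest differences (Ndufb7, Atp5e, Ndufa5, Cox6a2, Cox8a and Ndufb4c) kept their direction and passed without that library. Leaving out WT replicate 1 or replicate 3 left 10 of the 20 higher members.

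The lists beside the chain varied at day 6. Of 18 citrate cycle genes 13 were lower in Tet1-KO cells and none higher (median −0.96), and of 19 glycolysis and hypoxia response genes 12 were lower and none higher (median −0.97). Without Tet1-KO day 6 replicate 2 these counts were 10 and 9. Of 38 assembly factors under other symbols 13 were lower and 2 higher (median −0.14), a count near the background. Lower were also 7 of 17 import and outer membrane genes, with 2 higher (−0.31), 4 of 15 regulators (−0.05) and 3 of 7 electron carriers, with 2 higher (0.09). Without that library the assembly factors were 8 lower and 6 higher, the import genes 3 and 2, the regulators 4 and 0, and the electron carriers 1 and 2, with a median of −0.22 for the last. Adipocyte markers summed to 29679.8 to 34440.1 FPKM in Tet1-KO cells and 64518.1 to 69155.7 FPKM in WT cells, and brown or thermogenic markers to 93.23 to 196.67 and 306.11 to 672.17 FPKM. Smooth muscle and myofibroblast markers summed to 83.15 to 1106.01 FPKM in Tet1-KO and 49.89 to 77.92 FPKM in WT cells, mesenchymal progenitor markers to 345.93 to 1854 and 173.2 to 334.85 FPKM, and chondrocyte and tendon markers to 26.75 to 82.35 and 3.65 to 11.71 FPKM. None of these lists overlapped between the groups, and their part in the members' difference was not tested.

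The change over time itself differed between Tet1-KO and WT cells for some members. For the change from day 0 to day 4, 8 members were lower in Tet1-KO than in WT cells and none higher, where 7.61% of all genes passed, 5.48% as higher and 2.12% as lower. Uqcrq led with −1.66 ± 0.35 (limma adjusted p = 0.0134), with 546, 615 and 429.6 FPKM at day 4 and 134, 144 and 90.2 FPKM at day 0 in Tet1-KO cells, against 772, 743 and 636 FPKM and 64.6, 54.6 and 55.9 FPKM in WT cells. Its Tet1-KO libraries were thus above WT at day 0 and below WT at day 4. Ndufb6 (−1.52 ± 0.35) and Cox6a1 (−1.42 ± 0.35) followed. For the change from day 0 to day 6, 17 members were lower and none higher, where 17.8% of all genes passed, 7.16% as higher and 10.6% as lower. In both directions together the members were near the background. These 17 were 7 complex I subunits, 7 complex IV members, 2 of complex III and 1 of complex II. The count of 8 was 1 without either of Tet1-KO day 0 replicates 1 and 2, Tet1-KO day 4 replicates 1 and 3, WT day 0 replicates 2 and 3, and WT day 4 replicates 1 and 2, and 5 without WT day 4 replicate 3. It was 17 without Tet1-KO day 0 replicate 3, 25 without Tet1-KO day 4 replicate 2 and 34 without Tet1-KO day 6 replicate 2. The count of 17 was 7 and 8 without Tet1-KO day 0 replicates 1 and 2, 11, 7 and 5 without WT day 0 replicates 1, 2 and 3, and 7 and 9 without WT day 6 replicates 2 and 3. It was 35 and 32 without Tet1-KO day 6 replicates 1 and 3, and 23 without replicate 2.

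In 23-NC cells most of the chain was higher by day 4. At day 2, 13 of 88 members were higher than at day 0 and 3 were lower, with a median of 0.12, where 59.5% of 12231 genes passed, so that the members lay below the background. At day 4, 73 were higher and 1 lower (median 0.89, fold 1.85), where 72.4% of all genes passed, 30.2% as higher and 42.1% as lower. At day 6, 52 were higher and 4 lower (median 0.49, fold 1.40), where 72.2% passed and 31.7% as higher. At day 4 complex III again had the largest median (1.27, 7 of 8 higher) and the assembly factors the smallest (0.46, 4 of 8), and all 18 redox and catalytic subunits were higher. Atp5b, the catalytic beta subunit of the ATP synthase (chr10:128083273-128090391, plus strand), had 1251, 1264 and 1332 FPKM in 23-NC cells at day 4 against 496, 420.5 and 421 FPKM at day 0 (1.62 ± 0.06, limma adjusted p = 5.97e-20). Uqcrq had 42.0, 28.9 and 25.8 FPKM at day 0, 103, 102 and 150.3 FPKM at day 4 and 75.6, 86.5 and 69.9 FPKM at day 6. In both genes all later libraries named here exceeded all day 0 libraries. Ribosomal protein genes went the other way in 23-NC cells, with a median of −0.58 and 65 of 72 lower at day 4. Citrate cycle genes were higher at day 4 in 18 of 18 cases (median 1.68). Adipocyte markers summed to 66.19 to 74.4 FPKM at day 0, 2781.21 to 2972.94 at day 2, 20405.5 to 27711.2 at day 4 and 10668.3 to 12072.7 FPKM at day 6. The day 2 count of 13 higher was 33 without 23-NC day 0 replicate 1 and 7 without replicate 3. Its 3 lower members were 6 and 9 without 23-NC day 0 replicates 2 and 3 and 1 without 23-NC day 2 replicate 2. The 4 lower at day 6 were 1 and 7 without 23-NC day 0 replicates 1 and 3 and 2 without 23-NC day 6 replicate 1.

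The assembly factor Ndufaf6 (chr4:11051045-11076205, minus strand) had the largest change of any member at day 2 in 23-NC cells. It had 4.64, 2.53 and 4.03 FPKM at day 0, 21.7, 20.2 and 22.4 FPKM at day 2, 28.2, 27.4 and 30.4 FPKM at day 4 and 17.6, 20.3 and 19.1 FPKM at day 6. Its day 2 change of 2.34 ± 0.11 (limma adjusted p = 2.84e-17) stood against a member median of 0.12. The next members at day 2 were Ndufv3 (0.70 ± 0.15), an accessory subunit of the NADH-binding part of complex I, and Ndufaf7 (0.49 ± 0.09). Lower at day 2 were Ndufaf1, Ndufaf8 and Cox7a2l. In WT cells Ndufaf6 also rose early, with 40.2, 35.1 and 40.6 FPKM at day 2 against 5.95, 4.63 and 5.86 FPKM at day 0. In 23-CATA cells it had 27.6, 33.7 and 30.2 FPKM at day 2 and 4.97, 4.97 and 5.30 FPKM at day 0, and in 23-Tet1 cells 8.93, 9.24 and 9.44 FPKM at day 2 and 5.61, 5.21 and 6.49 FPKM at day 0.

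In 23-Tet1 cells the chain had medians near those of 23-NC until day 4 and stood above 23-NC at day 6. At day 0, 39 of 88 members were higher than in 23-NC cells and 3 lower (median 0.17), where 61.3% of all genes passed and 37.8% as higher. At day 2, 33 were higher and 6 lower (median 0.10), where 63.9% passed. Without Ndufa4l2, which passed the filter through the 23-CATA libraries alone, 32 of 87 were higher and 6 lower. At day 4, 5 were higher and 15 lower (median −0.20, fold 0.871), where 56.9% passed. On these 3 days the members' count in both directions together lay below the background. At day 6, 72 were higher and 1 lower (median 0.56, fold 1.48), where 65.0% of all genes passed, 36% as higher and 29.0% as lower. All 8 complex III members, all 4 of complex II, 31 of 39 complex I subunits, 13 of 17 ATP synthase members, 10 of 12 of complex IV and 6 of 8 assembly factors were higher at day 6. Of the 18 redox and catalytic subunits 17 were. The comparisons of 23-Tet1 and 23-CATA with 23-NC share the 23-NC libraries.

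Atp5g1 (chr11:96068852-96075670, minus strand) led at day 6, with 311, 300.2 and 315 FPKM in 23-Tet1 cells and 120.1, 162 and 119 FPKM in 23-NC cells (1.17 ± 0.13, limma adjusted p = 4.09e-09). Ndufaf4 had 6.79, 7.03 and 8.71 FPKM in 23-Tet1 cells and 2.86, 2.43 and 2.70 FPKM in 23-NC cells (1.16 ± 0.11, limma adjusted p = 5.46e-11). Ndufa9, an accessory subunit next to the quinone site of complex I, had 103, 112 and 122 FPKM in 23-Tet1 cells and 48.2, 54.5 and 45.0 FPKM in 23-NC cells (1.13 ± 0.12, limma adjusted p = 4.45e-10). None of the 3 genes overlapped between the groups. The lower member at day 6 was Cox6a2, with 1.16, 0.77 and 0.59 FPKM in 23-Tet1 cells and 2.45, 3.45 and 1.81 FPKM in 23-NC cells (−0.99 ± 0.19). At day 0 the same gene was the other way round, with 4.47, 3.21 and 4.41 FPKM in 23-Tet1 cells and 0.00, 0.16 and 0.16 FPKM in 23-NC cells (2.08 ± 0.19, limma adjusted p = 5.67e-11). At day 4 the lower members included Ndufaf6, at 10.2, 11.8 and 10.9 FPKM in 23-Tet1 cells against 28.2, 27.4 and 30.4 FPKM in 23-NC cells (−1.39 ± 0.11), and Atp5s (−0.84), Ndufs5 (−0.61), Uqcrfs1 (−0.51) and Ndufv1 (−0.51). The higher members at day 4 were Atp5g1 (0.70), Ndufaf4 (0.54), Atp5k (0.41), Ndufa11 (0.21) and Atp5a1 (0.14).

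The difference in course between 23-Tet1 and 23-NC was tested directly. For the change from day 0 to day 6, 44 members were higher in 23-Tet1 cells and 4 lower (median 0.41), where 61.4% of all genes passed and 29.1% as higher. Uqcrh, the hinge protein of complex III, led with 1.27 ± 0.24. It had 576, 645 and 734 FPKM at day 6 and 281, 218 and 297 FPKM at day 0 in 23-Tet1 cells, against 409.5, 497 and 408 FPKM and 567, 371 and 346 FPKM in 23-NC cells. Ndufc2 and Ndufs5 (1.16 each) followed, and Ndufaf6 (−0.72) and Ndufs8 (−0.52) were lowest. Citrate cycle genes were 18 of 18 higher in 23-Tet1 than in 23-NC cells at day 6 (median 0.64) and 13 of 18 lower at day 4 (median −0.52), while 10 of 19 glycolysis and hypoxia response genes were lower at day 6. Adipocyte markers summed to 16176.6 to 17025.7 FPKM in 23-Tet1 and 20405.5 to 27711.2 FPKM in 23-NC cells at day 4, and to 50770.2 to 58655.5 and 10668.3 to 12072.7 FPKM at day 6. Their part in the members' difference was not tested. Libraries of 23-NC decided several counts. The 39 higher members at day 0 were 59 without 23-NC day 0 replicate 1, and the 3 lower were 5 without replicate 2 or replicate 3. The 6 lower at day 2 were 3 without 23-NC day 2 replicate 1 or 23-Tet1 day 2 replicate 3. The 5 higher and 15 lower at day 4 were 9 and 9 without 23-NC day 4 replicate 3. The 44 members of the course comparison were 27 without 23-NC day 0 replicate 1.

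In 23-CATA cells the chain was higher than in 23-NC cells from day 2 on, in all complexes. At day 0, 33 of 88 members were higher and none lower (median 0.16), where 43.3% of all genes passed and 31.6% as higher, near the members' count. At day 2, 85 were higher and none lower (median 1.13, fold 2.19), where 65.0% of all genes passed and 34.3% as higher. At day 4, 86 were higher and 1 lower (median 1.30, fold 2.46), where 68.7% passed and 28.9% as higher, and at day 6, 84 were higher and 1 lower (median 1.39, fold 2.63), where 74.4% passed and 38.0% as higher. All 18 redox and catalytic subunits were higher on each of these 3 days. At day 4, 39 of 39 complex I subunits, 12 of 12 members of complex IV, 8 of 8 of complex III, 4 of 4 of complex II, 16 of 17 ATP synthase members and 7 of 8 assembly factors were higher. The exceptions were Atp5s, a factor that couples the 2 parts of the ATP synthase, which did not pass (−0.23), and Ndufaf6, which was lower (−0.52 ± 0.11, limma adjusted p = 1.37e-05). At day 6 Ndufaf6 was again the lower member, and Atp5g2, Atp5s and Cox6a2 did not pass. Under quantile normalization the medians at days 2, 4 and 6 were 1.01, 1.00 and 1.09. Members under and over 1000 bases had medians of 1.29 and 1.37 at day 4, all genes tested under 1000 bases one of 0.19, and ribosomal protein genes one of 0.00. The day 0 count of 33 was 70 without 23-NC day 0 replicate 1, 14 without replicate 2 and 16 without replicate 3.

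Ndufa4l2 (chr10:127514967-127517154, plus strand), a paralog of Ndufa4 that is known as a hypoxia-induced gene, was listed far above 23-Tet1 and 23-NC in 23-CATA cells on every day. It had 14.5, 14.2 and 15.5 FPKM at day 0, 20.02, 18.2 and 16.3 FPKM at day 2, 22.4, 20.5 and 26.1 FPKM at day 4 and 28.6, 24.4 and 27.3 FPKM at day 6. No 23-Tet1 library exceeded 0.64 FPKM and no 23-NC library 0.45 FPKM. Against 23-NC its difference was 3.50, 4.15, 4.52 and 4.61 on days 0, 2, 4 and 6 on the log2(FPKM + 1) scale, which understates a ratio against values this low. It passed the filter in this table through the 23-CATA libraries alone, so these values are a description with no test. It is counted among the 39 complex I subunits at day 4. Without it the higher members in 23-CATA against 23-NC cells were 32, 84, 85 and 83 of 87 on days 0, 2, 4 and 6. Of 19 glycolysis and hypoxia response genes, 13 were higher and none lower in 23-CATA than in 23-NC cells at day 0. On that day 31.6% of all genes passed as higher. At day 2, 9 genes of the list were higher and 7 lower. The day 4 counts were 15 higher and 1 lower, and the day 6 counts 8 higher and 8 lower. Ndufa4 itself had 1436, 1564 and 1556 FPKM in 23-CATA cells at day 6 and 308, 337 and 303 FPKM in 23-NC cells (2.25 ± 0.12, limma adjusted p = 2.06e-16), the next largest difference on that day. Ndufa1, a small subunit of the complex I membrane arm, followed with 355, 427 and 361 FPKM in 23-CATA cells and 83.7, 107 and 80.6 FPKM in 23-NC cells (2.05 ± 0.18). At day 2 the members next after Ndufa4l2 were Atp5g3 (2.03 ± 0.16) and Atp5g1 (1.94 ± 0.13), and at day 4, among those at a mean of 5 FPKM or more, Atp5k (1.89 ± 0.15) and Atp5g1 (1.82).

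**Figure D5:**
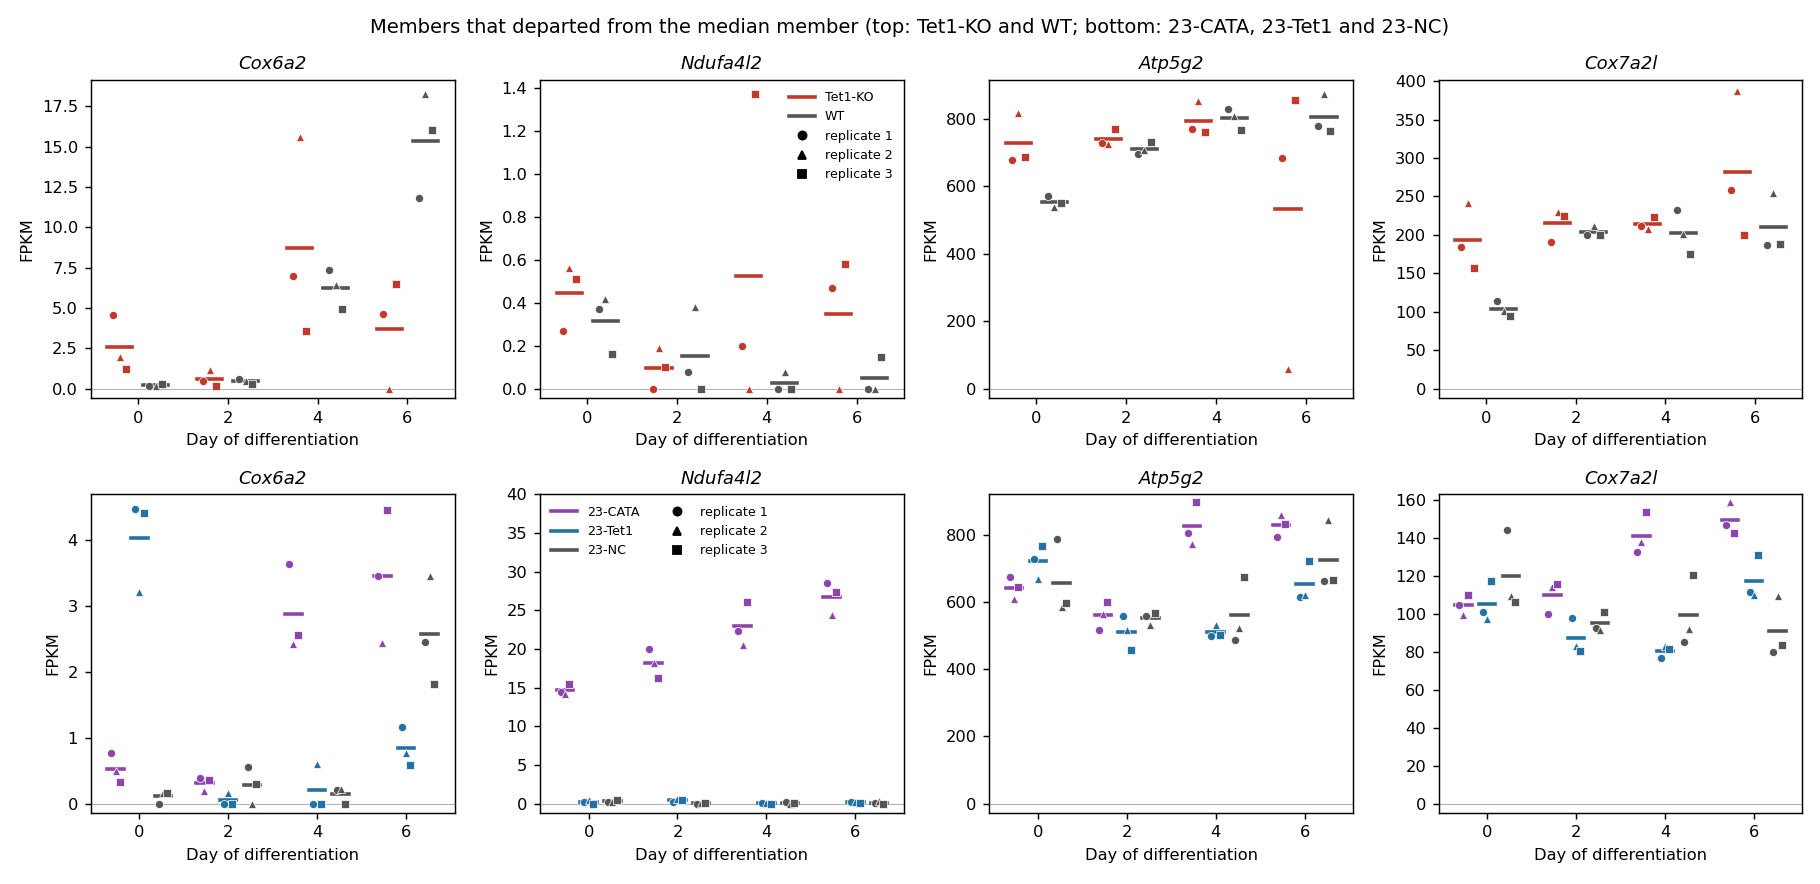
FPKM (y axis) of 4 members by day (x axis) in Tet1-KO and WT libraries (top) and in 23-CATA, 23-Tet1 and 23-NC libraries (bottom); points are libraries and bars are means of 3. Ndufa4l2 lay at 14.2 FPKM or more in 23-CATA libraries and at 0.64 FPKM or less in 23-Tet1 and 23-NC libraries, and Atp5g2 was high before induction in all populations.

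The course also differed between 23-CATA and 23-NC cells. For the change from day 0 to day 6, 80 members were higher and 1 lower (median 1.23), where 63.5% of all genes passed and 27.5% as higher. Without Ndufa4l2, 79 of 87 were higher and 1 lower. Ndufa4 (1.95), Ndufa1 (1.93) and Ndufaf4 (1.93) led, and Ndufaf6 (−0.78) was lower. Ndufaf4 had 12.9, 13.3 and 13.1 FPKM at day 6 and 5.10, 5.33 and 5.12 FPKM at day 0 in 23-CATA cells, against 2.86, 2.43 and 2.70 FPKM and 5.04, 4.45 and 4.72 FPKM in 23-NC cells, so that the populations were close at day 0 and apart at day 6. Adipocyte markers summed to 2521.08 to 2687.54 FPKM in 23-CATA and 66.19 to 74.4 FPKM in 23-NC cells at day 0, to 28404.2 to 31956.1 and 2781.21 to 2972.94 FPKM at day 2, to 64166.1 to 71016 and 20405.5 to 27711.2 FPKM at day 4, and to 55647.5 to 57061.1 and 10668.3 to 12072.7 FPKM at day 6. Their part in the members' difference was not tested. Citrate cycle genes were 18 of 18 higher on days 2, 4 and 6 (medians 1.59, 1.04 and 1.31), and 35, 33 and 33 of 38 assembly factors under other symbols were higher. The 15 regulators of mitochondrial biogenesis were split, with 4, 7, 3 and 5 higher and 1, 2, 7 and 6 lower on days 0, 2, 4 and 6. Their medians were −0.04, 0.16, −0.03 and 0.13. Among these regulators, Ppargc1a, the coactivator best known for raising mitochondrial mass, had 8.64, 9.23 and 7.83 FPKM in 23-CATA and 2.45, 3.88 and 3.86 FPKM in 23-NC cells at day 0. At day 4 it had 3.03, 3.69 and 2.35 against 7.51, 6.91 and 6.94 FPKM. Its paralog Ppargc1b had 12.5, 10.6 and 11.7 FPKM in 23-CATA and 2.02, 1.88 and 2.01 FPKM in 23-NC cells at day 2. Esrra had 57.1, 53.5 and 67.1 FPKM in 23-CATA and 26.8, 23.99 and 29.4 FPKM in 23-NC cells at day 4. The libraries of these 3 genes did not overlap on the days named.

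Set against 23-Tet1 cells, 23-CATA cells had members on both sides at day 0 and more of the chain afterwards. At day 0, 15 of 88 members were higher and 17 lower (median 0.01), where 64.2% of all genes passed, so that the members lay below the background. At day 2, 83 were higher and none lower (median 1.04, fold 2.06), where 67.4% of all genes passed and 30.3% as higher. At day 4 all 88 were higher (median 1.47, fold 2.77), where 74.2% of all genes passed and 27.6% as higher. Ndufa4l2, which entered through the 23-CATA libraries, is among them, and the differences of the other 87 ran from 0.49 to 2.17. At day 6, 85 were higher and 1 lower (median 0.73, fold 1.65), where 65.7% passed and 31.9% as higher. Without Ndufa4l2 the higher members were 14, 82, 87 and 84 of 87 on days 0, 2, 4 and 6, and the lower counts stayed the same. Adipocyte markers summed to 2521.08 to 2687.54 FPKM in 23-CATA and 31.1 to 43.97 FPKM in 23-Tet1 cells at day 0, to 28404.2 to 31956.1 and 1681.85 to 1927.56 FPKM at day 2, and to 64166.1 to 71016 and 16176.6 to 17025.7 FPKM at day 4. Adipocyte markers at day 6, 55647.5 to 57061.1 FPKM in 23-CATA and 50770.2 to 58655.5 FPKM in 23-Tet1 cells, overlapped, whereas brown or thermogenic markers, 518.97 to 549.51 and 66.76 to 79.2 FPKM, did not. That brown list includes the chain genes Cox7a1 and Cox8b, and 4 of its 8 genes reached 1 FPKM in each population. Zic1 was listed at 0 in both and Dio2 in 23-CATA cells. The part of all these markers in the members' difference was not tested. Ndufv1 had 364, 342 and 447 FPKM in 23-CATA cells at day 4 and 93.2, 93.9 and 95.9 FPKM in 23-Tet1 cells (2.17 ± 0.10, limma adjusted p = 3.78e-17). Atp5b had 2815, 2690.4 and 2885 FPKM in 23-CATA cells and 1149.5, 1153 and 1145 FPKM in 23-Tet1 cells on that day. Uqcrfs1 differed by 1.84 ± 0.09 at day 2 and 1.94 at day 4. At day 6 Ndufs8, an iron-sulfur subunit of complex I, differed by 1.25 and Ndufb7 by 1.22, and Ndufaf6 was the lower member (−0.26 ± 0.11, limma adjusted p = 0.0316). At day 0 Ndufv3 (0.90) and Atp5g3 (0.48) were higher, and Ndufs8 (−0.71), Atp5b (−0.55) and Ndufaf4 (−0.55) were lower. The day 0 counts depended on single libraries. The 15 higher were 8 and 9 without 23-CATA day 0 replicates 1 and 3 and 7 and 8 without 23-Tet1 day 0 replicates 1 and 2, and the 17 lower were 10 without 23-CATA day 0 replicate 2 and 11 and 8 without 23-Tet1 day 0 replicates 1 and 3. The 1 lower at day 6 was 0 without 23-CATA day 6 replicate 2 or replicate 3 or 23-Tet1 day 6 replicate 1 or replicate 2.

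Across group means most members kept the shape of the median member. Over the 8 group means of the Tet1-KO and WT table, 48 of 89 members correlated with it at 0.9 or more (Pearson's r, a description over means that share libraries), with a median of 0.922. Uqcrq was most like it, at 0.997. Those least like it were Cox4i2 (−0.170), Cox6b2 (0.252), the testis form of subunit 6B, and Atp5g2 (0.260). Over the 12 group means of the other table, 73 of 88 reached 0.9, with a median of 0.968. Cox6b1 was most like the median member (0.995), and Cox6a2 (0.423), Atp5g2 (0.488) and Ndufaf6 (0.510) least. Atp5g2 was in both sets. Its group means ran from 510 to 827 FPKM in the 23-CATA, 23-Tet1 and 23-NC table, and in Tet1-KO day 6 replicate 2 it was listed at 57.8 FPKM beside 684 and 854 FPKM in the other 2 libraries of that group. The 3 subunit c genes therefore differed in course: at WT day 4 Atp5g3 had 3705, 3492 and 2928 FPKM against 629, 526 and 536 FPKM at day 0, where Atp5g2 did not pass the test. Of the complex IV pairs, Cox4i1 and Cox6a1 carried the level. Cox6a1 had 5084, 4793 and 4094 FPKM and Cox6a2 7.33, 6.43 and 4.94 FPKM in WT cells at day 4.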

How the data were processed

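RNA was sequenced from 60 libraries of C3H10T1/2 cells. Per the submitters' processing notes, reads were aligned with STAR 2.4.1a to mm10 and expression was estimated with RSEM; per the labels' protocols, libraries were made with a TruSeq RNA kit, and strand is not stated. The deposited values are FPKM per gene, given by the authors in 2 tables (24 and 36 libraries), which were fitted separately, with no test between them. Read counts were not used here.

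Groups came from the sample titles. Values were analysed as log2(FPKM + 1), after keeping genes at 1 FPKM or more in 3 or more libraries, by the moderated linear model of limma (version 3.58.1, R version 4.3.3, with a trend in the variance prior), 1 model per table. The threshold was an adjusted p of 0.05 by Benjamini and Hochberg's method, taken over the 11911 or 12231 genes tested. There were 26 comparisons. Changes are printed relative to the median gene tested. Scripts were tested on simulated data. Alternatives were a pseudocount of 0.1, no filter, quantile normalization, the replicate number as a block, and each library left out in turn.

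Named were the redox and catalytic subunits, the paralog groups, up to 3 members per direction and comparison with the largest change among those that passed without overlap and with a mean of 5 FPKM or more in the higher group, the highest and lowest member of each class, and the 3 least like the median member; a few more (among them Ppargc1a, Ppargc1b, Esrra, Nrf1, Cycs, Atp5e, Ndufaf3 and Uqcrh where they fall outside that rule) were chosen after their values were seen. The single values of 1 member are not reported here. The members and lists were chosen with earlier results of these data known. Transcript lengths and gene coordinates come from GENCODE M21 and promoters from RefSeq, both on GRCm38, the mm10 assembly. Same-numbered libraries were not paired by the labels: in 22 comparisons the correlation of their deviations ran from −0.468 to 0.42 and every pair was over 0.1 in 1 of them. The lowest FPKM values are multiples of 1 fragment, which gave each library's depth. Python 3.11.15, numpy 2.4.6, pandas 2.3.3 and matplotlib 3.10.9 made tables and figures.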

Additional observations from a re-analysis of the deposited data

Results flagged for a closer look

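A test of the difference between 2 populations in their change from day 0 passed for the following. Between Tet1-KO and WT cells, 8 members had a lower change to day 4 and 17 a lower change to day 6 in Tet1-KO cells, and none a higher one. Of all genes tested 7.61 and 17.8% passed in either direction, near the shares of the 89 members. In the lower direction alone, 2.12 and 10.6% of all genes passed, below the members' shares. To day 4 the largest were Uqcrq (−1.66), Ndufb6 (−1.52) and Cox6a1 (−1.42), and to day 6 Cox6a2 (−3.56), Cox8a (−2.57) and Ndufa10 (−1.99), on the log2 scale relative to all genes tested. Without Tet1-KO day 6 replicate 2 the Cox6a2, Cox8a and Ndufa10 values were −2.84, −1.45 and −1.325.

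Between 23-Tet1 and 23-NC cells, 44 members had a higher and 4 a lower change to day 6 in 23-Tet1 cells, among them Uqcrh (1.27), Ndufc2 (1.16), Ndufs5 (1.16), Ndufaf6 (−0.72) and Ndufs8 (−0.52). Of all genes 61.4% passed, so that the 48 of 88 members lay below the background in both directions together, while 29.1% of all genes passed as higher. Between 23-CATA and 23-NC cells, 80 were higher and 1 lower in 23-CATA cells, among them Ndufa4 (1.95), Ndufa1 (1.93), Ndufaf4 (1.93) and Ndufaf6 (−0.78), where 63.5% of all genes passed, below the members' count. Without Ndufa4l2, which passed the filter through 23-CATA libraries alone, 79 of 87 were higher. These 2 comparisons share the 23-NC libraries.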

How the results depend on the processing

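The replicate number as a block gave 52 of 52 member counts within 1.5 times of the values reported (30 higher at day 0 and 41 lower at day 2 for Tet1-KO against WT among them), and 611 named results with the same call and 4 weaker ones; the labels do not pair the libraries. With a pseudocount of 0.1, 605 named results had the same call, 9 were weaker and 1 changed sign; without the filter on low values 577 had the same call and 38 were weaker, and under quantile normalization 570 and 45. Without the filter, Tet1-KO against WT gave 13 higher at day 6 (20 reported), and lower changes to day 4 in 5 (8) and to day 6 in 10 (17). The lower counts were 0 for 23-NC day 4 against day 0, 2 for 23-CATA against 23-Tet1 at day 6 and 2 for the 23-CATA against 23-NC change (1 reported in each). Under quantile normalization, Tet1-KO against WT gave 14 higher and 1 lower at day 0 (30 and 0), 12 lower at day 4 (4), 12 higher and 35 lower at day 6 (20 and 21), and lower changes in 15 (8) to day 4 and in 33 (17) to day 6. The lower 23-NC members then were 9 at day 2 (3), 2 at day 4 (1) and 7 at day 6 (4). For 23-Tet1 against 23-NC it gave 11 higher at day 4 (5) and 2 lower at day 6 (1). The lower counts for 23-CATA against 23-NC were 3 at day 0 and 1 at day 2 (0 in both), and for 23-CATA against 23-Tet1 28 at day 0 (17), 1 at day 2 (0) and 0 at day 6 (1). With a pseudocount of 0.1 the last was also 0. For 1 gene, the result for Sdha, 23-Tet1 against 23-NC at day 0, turned to −0.011 with a pseudocount of 0.1 and ran from −0.00675 (without 23-Tet1 day 0 replicate 2) to 0.021 with 1 library left out. The cause of these moves was not tested. Leaving out 1 library at a time gave the following ranges. For Tet1-KO against WT the counts ran 6 to 52 higher and 0 to 1 lower at day 0, 1 to 34 lower for the change to day 4, 0 to 1 higher and 5 to 35 lower for the change to day 6. In the same comparison the counts ran 9 to 70 lower at day 2, 0 to 1 higher and 0 to 15 lower at day 4, 10 to 21 higher and 13 to 29 lower at day 6. For 23-NC against its day 0 the counts ran 7 to 33 higher and 1 to 9 lower at day 2, 0 to 2 lower at day 4, 1 to 7 lower at day 6. For 23-Tet1 against 23-NC the counts ran 27 to 59 higher and 2 to 5 lower at day 0, 27 to 51 higher for the change to day 6, 3 to 7 lower at day 2. In the same comparison the counts ran 4 to 9 higher and 9 to 21 lower at day 4. For 23-CATA against 23-NC the counts ran 14 to 70 higher at day 0, 1 to 2 lower at day 4, 1 to 2 lower at day 6. For 23-CATA against 23-Tet1 the counts ran 7 to 15 higher and 8 to 17 lower at day 0, 0 to 1 lower at day 6.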
